A study of Homo sapiens with 16 samples.

Results

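Malign_1 is one of the malignant cell clusters that the study named in T127, a transplantable mouse mammary tumor. Its members are the cells that carry the deposited cluster name Malign_1, and they number 4157 of 48824 cells once each cell barcode shared between long-term pools is counted once, as its deepest copy. Of these, 1794 cells were in the 8 pools of the long-term experiment and 2363 in the 4 pools of the short-term T127 experiment, and the 4 short-term pools of T22 held 0. Throughout, Malign_1 was set beside Malign_0, the other malignant cluster of T127 (2809 cells long-term and 2515 short-term), within the same pools. The tumors LPA1-T22 (T22) and LPA1-T127 (T127) came from transgenic mice with the lysophosphatidic acid receptor LPA1 expressed in the mammary epithelium, so both T127 clusters share that origin. Tumor chunks of 25 mm3 were placed in the mammary fat pad of female FVB mice of 6 weeks, and once the tumors were established the mice were given vehicle or the PARP inhibitor olaparib (50 mg/kg, daily, by mouth). Short-term treatment lasted 4 or 8 days. Long-term treatment lasted 20 days, with tumors of a single strain or with T22 and T127 on opposite sides of the same mouse. Cells of several tumors were tagged and mixed in each pool, and no file used here ties a cell to its tumor, treatment, day or transplant setting. Each experiment was therefore treated as 1 sample, pools are given as captures of mixed cells, and no comparison carries a p-value. Each tumor line is also a single transplanted line, so the values describe T127 and not a class of tumors.

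Tumor cells of the mammary gland can hold keratins of their epithelial origin together with genes of the extracellular matrix. Immediate early genes are the first to be transcribed after a cell receives a stimulus, without new protein being made, and many encode transcription factors of the AP-1, EGR and NR4A families. Their products switch on later genes, among them secreted chemokines and growth factors, and also the phosphatases and RNA-decay proteins that shut the response down again. Growth factors, stress and the enzymatic dissociation of tissue, which all these tumors went through, are known to induce them.

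Dcn, Krt8 and Krt18, the markers given for T127 malignant cells, were all present in Malign_1, and their levels differed from Malign_0 by less than 2-fold. Dcn, which encodes the matrix proteoglycan decorin, had 4324 UMIs per 1000000 UMIs of the cluster (CPM) in Malign_1 and 4305 in Malign_0 long-term, and 3674 against 2579 short-term. In both experiments Malign_1 was the second highest cluster for Dcn after the inflammatory fibroblasts (i_CAF), so Dcn alone does not mark a malignant cell here. Krt8 and Krt18, the paired keratins of simple epithelium, were lower in Malign_1: Krt8 had 735 CPM in Malign_0 and 480.2 in Malign_1 long-term, and 1412 and 1003 short-term, and Krt18 had 597 CPM in Malign_0 and 499 in Malign_1 long-term, and 655 and 597 short-term. Krt8 was lower in Malign_1 in 12 of 12 pools, and its pool ranges did not overlap in either experiment, nor did those of Dcn short-term. Krt18, however, was higher in Malign_1 in 2 of 12 pools. Long-term, the clusters Malign_3 (3022 CPM) and CD14-PF4 (647 CPM) had more Krt18 than Malign_1. With each cell thinned to 5000 UMIs, 92.5% (91.2 to 93.7) of Malign_1 cells long-term and 95.8% (94.9 to 96.6) short-term held a Dcn UMI, against 15.02% and 16.7% of CD4_Tcm-TCF7 T cells, which should lack the gene. For Krt8 the shares were 75.5% and 89.0%, against 6.44% and 6.67% of the T cells. These T cells were the 233 long-term and 30 short-term ones of at least 5000 UMIs (all CD4_Tcm-TCF7 cells had medians of 2758 and 2804 UMIs), and all intervals in brackets are 95% intervals that cover counting error only.

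Markers of most other cell types were low in Malign_1, while those of red blood cells and, long-term, of macrophages were not near 0. The summed level of 14 macrophage or monocyte markers was 325 CPM long-term (pools 257 to 408) and 40.6 short-term, which is 0.6253% and 0.118% of the level in those cells themselves, against 287 and 33.8 CPM in Malign_0. Of these 14 markers, 11 were higher in Malign_1 in each experiment. Marker sums of T or NK cells, B cells, endothelial cells and fibroblasts in Malign_1 were between 0.0202% and 0.768% of the level in their own cells. The 5 neutrophil markers summed to 58.3 CPM long-term and 17.8 short-term (62.9 and 7.08 in Malign_0), and the 10 markers of T22 malignant cells to 169.9 and 146 CPM. Hemoglobin and other red blood cell genes summed to 1388 CPM long-term (pools 807 to 2924) and 792 short-term, below the 1778 and 936 of Malign_0. In these lists 1 B cell marker was at 0 in Malign_1 short-term and all other markers had some UMIs. Without the 10% of cells with most macrophage or monocyte marker UMIs, 93 genes long-term and 117 short-term were at least 2-fold higher in Malign_1, against 94 and 120 with all cells. The part of RNA of the other cell types in the differences below was not tested.

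Malign_1 made up 48.4% (47.0 to 49.9) of the T127 malignant cells short-term and 39.0% (37.6 to 40.4) long-term. In the short-term pools its share was 48.6%, 47.3%, 49.4% and 48.3%. Across the 8 long-term pools the lowest, median and highest shares were 23.9%, 37.3% and 51.4%. Long-term pools 1 to 4 lay between 47.4% and 51.4% (1253 of 2544 cells together) and pools 5 to 8 between 23.9% and 27.3% (541 of 2059), and these ranges did not overlap. The labels give all 8 pools the same description, so what divides these pools cannot be told from them, and the counts, list medians and named genes below were also computed within each set of 4. The difference lay more in Malign_1 than in Malign_0: pools 1 to 4 held 293 to 360 Malign_1 cells each and pools 5 to 8 held 109 to 157, while Malign_0 had 291 to 341 and 347 to 419.

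**Figure D1:**
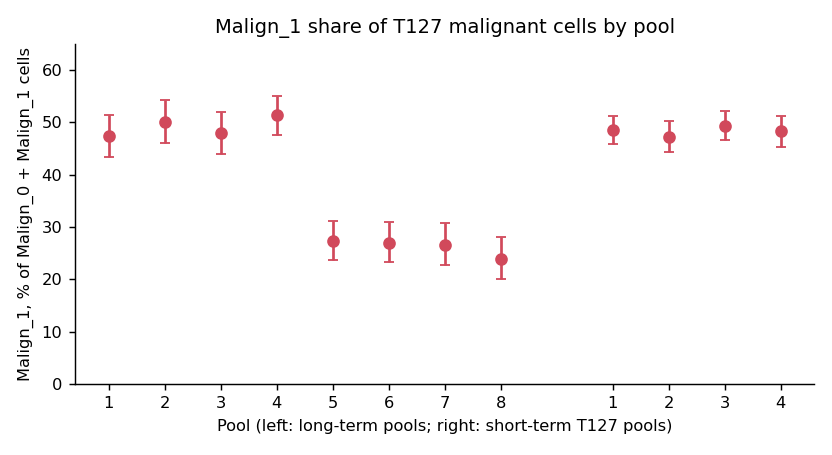
Share of Malign_1 among the T127 malignant cells (Malign_0 and Malign_1 together, in percent) in each long-term pool (left) and each short-term T127 pool (right). Points are shares and bars are exact 95% binomial intervals, which cover counting error only. Long-term pools 5 to 8 lie between 23.9% and 27.3%, below all other pools.

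Depth differed little between the clusters. The median Malign_1 cell held 20459.5 UMIs and 4162 genes long-term and 31962 UMIs and 5674 genes short-term, with at least 2501 genes in every T127 malignant cell. Its median UMI count divided by that of Malign_0 ranged from 0.962 to 1.12 across long-term pools and from 0.865 to 0.906 across short-term pools. Mitochondrial transcripts took 1.03% of Malign_1 UMIs long-term and 2.47% short-term, against 1.31% and 2.66% in Malign_0. Long-term, pools 1 to 4 gave 1253 of 1794 Malign_1 cells but 1291 of 2809 Malign_0 cells. Summed long-term levels here and below therefore weigh the pools differently in each cluster. Within every long-term pool the mitochondrial share was lower in Malign_1, but relatively less so than in the sums, with 1.29% against 1.59% in pool 8. Some long-term pools share barcodes: 4146 barcodes were in more than 1 of them, and 43 of these had a Malign_1 copy. For 24 of the 43 every copy was called Malign_1, for 14 another copy was called Malign_0 and for 5 another copy had a different name. Counting each once removed 25 Malign_1 and 67 Malign_0 cells, and the removed Malign_1 copies had a median of 9107 UMIs against 33997.5 in the copies kept. Short-term, 0 Malign_1 cells shared a barcode with another T127 pool.

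Past 2-fold, Malign_1 differed from Malign_0 mainly by genes that were higher in it. Levels are UMIs summed over the cells of a cluster and written as CPM, a log2 ratio is that of Malign_1 over Malign_0 with 1 CPM added to each, and genes were compared where either cluster had at least 20 CPM. Long-term, 94 of 5435 genes were at least 2-fold higher in Malign_1 (1.73%) and 24 were at least 2-fold lower (0.442%). Leaving out each long-term pool in turn gave 91 to 96 higher and 11 to 30 lower genes. Short-term, 120 of 6384 were at least 2-fold higher (1.88%) and 1 was lower (0.0157%). At 1.5-fold the shares were 3.18% higher and 2.13% lower long-term, and 3.27% and 0.815% short-term. Because the study drew its clusters from the expression of these same cells, such counts describe what the cluster names separate and test nothing. The experiments used different mice, and Pearson's r of their log2 ratios over the 5248 genes compared in both was 0.881, or 0.753 without the genes past 2-fold; genes are not independent replicates, and both sets of cells were named by the same scheme. Of those 5248 genes, 78 were at least 2-fold higher in both experiments and 0 were at least 2-fold lower in both. Direction was the same in all 12 pools for 546 higher (10.4%) and 1209 lower genes (23%), counted by sign without centring on the median gene. The median log2 ratio of all genes was -0.07 long-term and -0.09 short-term.

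**Figure D2:**
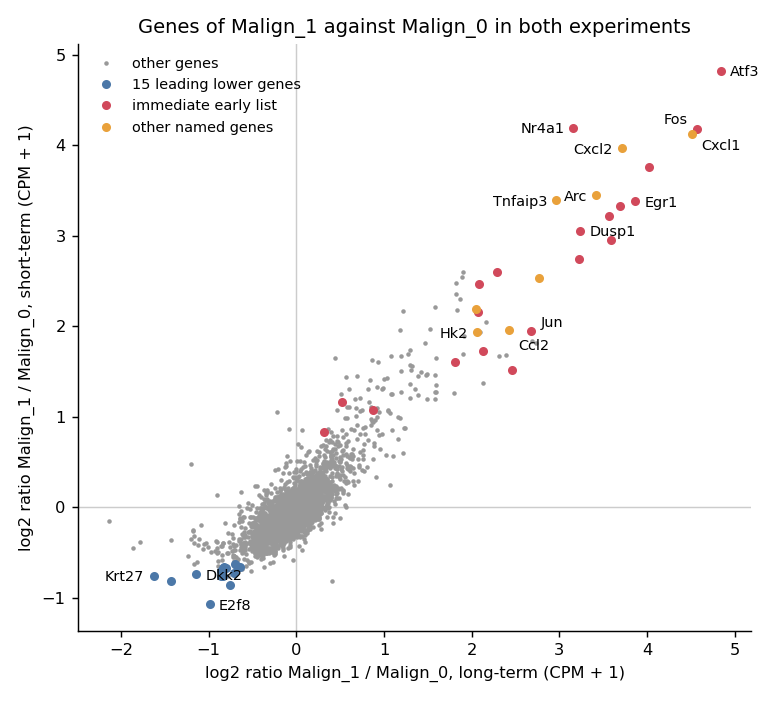
Log2 ratio of Malign_1 over Malign_0 (1 CPM added) in the long-term experiment (x axis) and the short-term experiment (y axis), 1 point per gene of at least 20 CPM. Coloured points are immediate early genes, other leading genes and the 15 leading lower genes, and the arm of large ratios extends to the upper right, with Atf3 at 4.84 and 4.82.

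By list, 17 of the 78 genes were immediate early genes, 4 belonged to glycolysis and hypoxia, 4 to chemokines and cytokines, 3 to the unfolded protein and integrated stress response and 3 to growth factor receptors and ligands. Dnajb1, Bmp2 and Hes1 were among those of further lists, and 43 were in none of the 29 lists. Among those 43 were Nfkbia, Socs3 and Tnfaip3, which restrain NF-kB or cytokine signalling, Nfkbiz, an atypical regulator of NF-kB, the GADD45 stress genes Gadd45a, Gadd45b and Gadd45g, and Ptgs2, which encodes cyclooxygenase-2 (Nfkbia, Socs3, the GADD45 genes and Ptgs2 were picked after their values were seen). Nfkbia had 293 CPM in Malign_0 and 1317 in Malign_1 long-term, and 283 and 1171 short-term (2.16 and 2.05), Socs3 had 67.9 CPM in Malign_0 and 300.3 in Malign_1 long-term, and 67.0 and 176 short-term (2.13 and 1.38), and Ptgs2 had 47.8 CPM in Malign_0 and 182 in Malign_1 long-term, and 74.5 and 279 short-term (1.91 and 1.89). All 3 were higher in Malign_1 in 12 of 12 pools.

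The immediate early list separated Malign_1 from Malign_0 more than any other of the 29 lists by its median. Of its 25 genes, 23 were in the files and 20 passed 20 CPM long-term, of which 17 were at least 2-fold higher in Malign_1, and of 21 short-term 20 were. The median log2 ratio was 2.92 long-term and 2.60 short-term. Together the list took 33763 CPM in Malign_1 long-term (pools 26393 to 37578) against 4362 in Malign_0 (pools 3720.0 to 5096). Short-term it took 26313 CPM (pools 25096 to 27378) against 4357 (pools 3871 to 4659). All Malign_1 pools lay above all Malign_0 pools.

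Fos encodes the AP-1 subunit that pairs with Jun proteins. In Malign_1 of the long-term pools it had a lowest, median and highest level of 4427, 6243 and 7721 CPM, and in Malign_0 146, 278 and 476 CPM. Within long-term pools 1 to 4, Fos ran from 7135 to 7721 CPM in Malign_1 and from 350 to 476 in Malign_0. Within pools 5 to 8 it ran from 4427 to 5352 and from 146 to 206 CPM. In short-term pools 1 to 4 it had 3093, 2910.3, 2971 and 3335 CPM in Malign_1 and 138, 198, 161 and 182 CPM in Malign_0. The lowest Malign_1 pool was well above the highest Malign_0 pool in each experiment, and the ratios were 23.7-fold (95% counting interval 23.4 to 24.1) long-term and 18.2-fold (95% counting interval 17.9 to 18.5) short-term. Atf3, a stress-induced factor of the ATF family, had the largest ratio of the leading genes. Its long-term pools ran 196, 329 and 444 CPM in Malign_1 and 6.11, 10.2 and 20.0 CPM in Malign_0. Its short-term pools had 169, 189, 154 and 179.8 CPM and 3.84, 6.02, 5.07 and 5.70 CPM. These are log2 ratios of 4.84 and 4.82, with no overlap of the pools.

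Of the other AP-1 genes, Fosb, Junb, Jun and Jund were at least 2-fold higher in both experiments. Fosb, a Fos relative, had 18.9 CPM in Malign_0 and 321 in Malign_1 long-term, and 80.6 and 1103 short-term (log2 ratios 4.02 and 3.76), and Junb had 741 CPM in Malign_0 and 6929 in Malign_1 long-term, and 685 and 4588 short-term (3.22 and 2.74). Jun, named here after its values were seen, had 720.4 CPM in Malign_0 and 4616 in Malign_1 long-term, and 1030.3 and 3991 short-term (2.68 and 1.95). Jund was at 1.81 and 1.61, whereas Fosl1 (0.31 and 0.83) and Fosl2 (0.52 and 1.16) differed less; these 3 were also named after their values were seen. Egr1, a zinc finger factor induced by growth factor signalling, had 1378, 1616 and 1685 CPM as its lowest, median and highest Malign_1 pool long-term and 79.96, 109 and 149 CPM in Malign_0. Short-term it had 2515, 2559.9, 2539 and 2541 CPM and 232, 255, 227 and 258 CPM, again without overlap. Nr4a1, an orphan nuclear receptor, had 13.3 CPM in Malign_0 and 127.1 in Malign_1 long-term, and 11.4 and 226 short-term and was among the leading genes with a larger ratio short-term (4.19) than long-term (3.16). Arc, best known as a synaptic activity gene, had 1.60 CPM in Malign_0 and 26.8 in Malign_1 long-term, and 2.19 and 33.8 short-term (3.42 and 3.45). It was near the floor in Malign_0, and with 10 CPM added its log2 ratios were 1.66 and 1.84. Among transcription factors outside the immediate early list, the Notch and stress target Hes1 had 23.8 CPM in Malign_0 and 92.0 in Malign_1 long-term, and 15.1 and 96.7 short-term (1.91 and 2.60), and Sox9, a factor of mammary progenitor cells, had 481 CPM in Malign_0 and 781 in Malign_1 long-term, and 706 and 1019 short-term (0.70 and 0.53). The mammary lineage list that holds Sox9 had medians of 0.19 long-term and 0.52 short-term, with 1 gene, Areg, at least 2-fold higher and 2 of 5 long-term and 2 of 6 short-term at least 1.5-fold higher, while Gata3, the luminal lineage factor, was at -0.11 and 0.10.

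**Figure D3:**
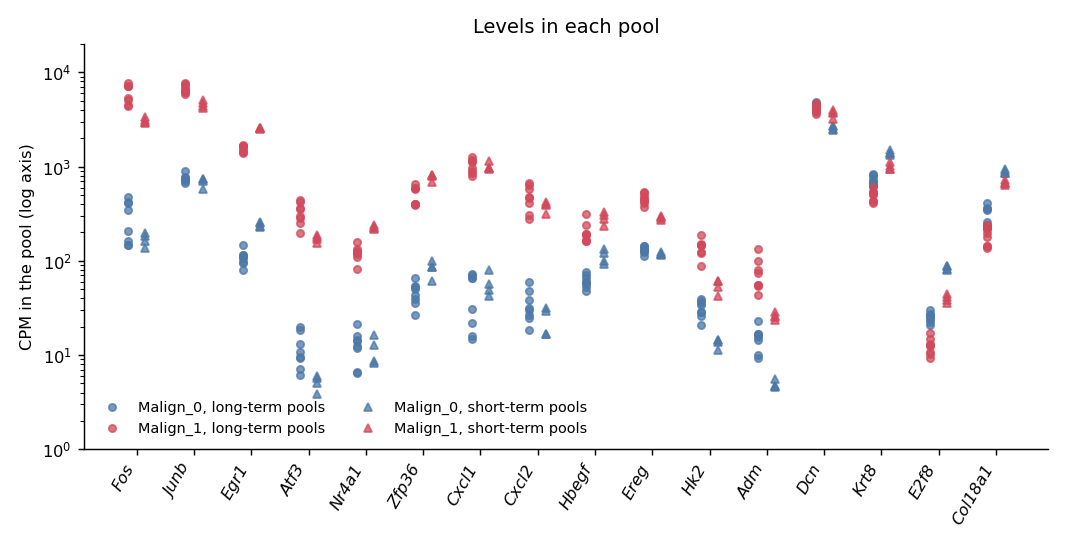
Levels in CPM on a log axis of 16 named genes in every pool; circles are long-term and triangles short-term pools, blue Malign_0 and red Malign_1. From Fos to Adm every Malign_1 pool lies above every Malign_0 pool of its experiment, Dcn overlaps long-term, and Krt8, E2f8 and Col18a1 lie lower in Malign_1 by far less.

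Among the other members of the immediate early list were genes whose products limit signalling or mRNA life. Dusp1, a phosphatase of MAP kinases, had 128 CPM in Malign_0 and 1211 in Malign_1 long-term, and 118 and 992 short-term (3.24 and 3.06). Zfp36, which speeds the decay of cytokine mRNAs, had 45.1 CPM in Malign_0 and 543 in Malign_1 long-term, and 82.5 and 779 short-term (3.56 and 3.22), and Btg2, an antiproliferative factor of mRNA deadenylation, had 53.1 CPM in Malign_0 and 696 in Malign_1 long-term, and 137 and 1390.0 short-term (3.69 and 3.33). Tnfaip3 (A20) and Nfkbiz, which were in none of the lists, act on NF-kB signalling. Tnfaip3 had 3.97 CPM in Malign_0 and 37.8 in Malign_1 long-term, and 12.2 and 138 short-term (2.96 and 3.39), and Nfkbiz had 18.3 CPM in Malign_0 and 131 in Malign_1 long-term, and 48.4 and 286 short-term (2.77 and 2.54). Ier2, a small nuclear protein of the immediate early list, had 304 CPM in Malign_0 and 3672 in Malign_1 long-term, and 249.5 and 1945 short-term (3.59 and 2.96). For all 6 genes every Malign_1 pool was above its own pool's Malign_0, which was a condition for naming them as leading genes. Cdkn1a, the p53-responsive cell cycle inhibitor p21, had 463 CPM in Malign_0 and 661 in Malign_1 long-term, and 379 and 905 short-term (0.51 and 1.25), while Phlda3 (-0.50 and -0.38), Bax (-0.29 and -0.23) and Polk (-0.24 and -0.17) of the same list of p53 targets were lower. That list had 0 of 12 genes at least 2-fold higher long-term and 2 of 17 short-term, with medians of -0.08 long-term and -0.00328 short-term, close to those of all genes.

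Some chemokine genes were much higher, while the medians of the chemokine and cytokine list were 0.06 long-term and 0.62 short-term. Of 11 chemokine and cytokine genes past 20 CPM in each experiment, 4 were at least 2-fold higher in Malign_1 and 0 lower: Cxcl1, Cxcl2, Ccl2 and Ccl7. Cxcl1, a neutrophil attractant, had 789.6, 1035 and 1274 CPM as its lowest, median and highest Malign_1 pool long-term and 14.7, 47.9 and 71.9 CPM in Malign_0. In the short-term pools it had 973, 1152, 959 and 935 CPM and 42.2, 49.1, 56.5 and 80.7 CPM. The pools did not overlap, and the ratios were 23.3-fold (95% counting interval 22.4 to 24.3) and 17.7-fold (95% counting interval 17.2 to 18.2). Cxcl2, which acts on the same receptor, had 34.6 CPM in Malign_0 and 465 in Malign_1 long-term, and 23.5 and 381 short-term (3.71 and 3.97). The monocyte attractant Ccl2 had 27.8 CPM in Malign_0 and 154 in Malign_1 long-term, and 11.7 and 48.3 short-term (2.43 and 1.95). Ccl7, a related chemokine, had 48.5 CPM in Malign_0 and 244 in Malign_1 long-term, and 9.07 and 31.0 short-term (2.31 and 1.67). Not all cytokines differed this way: Il34, a ligand of the macrophage receptor Csf1r that was named after its values were seen, was -0.41 and -0.43 on the log2 scale and lower in 12 of 12 pools.

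Set beside every cluster of at least 50 cells (21 long-term and 14 short-term T127), Malign_1 had the second highest level of Cxcl1 in both experiments, after i_CAF with 1038 and 1638 CPM. For Cxcl2 it ranked 9 of 21 and 7 of 14, below macrophage clusters of up to 3866 and 4337 CPM. With cells thinned to 5000 UMIs, 41.3% (39.0 to 43.6) of Malign_1 cells long-term and 49.9% (47.9 to 52.0) short-term held a Cxcl1 UMI, against 7.26% and 10.3% of Malign_0 cells. In the CD4_Tcm-TCF7 T cells the shares were 5.58% and 6.67%. Without thinning, 54.4% and 66.5% of Malign_1 cells held one.

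The EGF receptor ligands Hbegf, Areg and Ereg were higher in Malign_1. Hbegf had 61.6 CPM in Malign_0 and 188 in Malign_1 long-term, and 112 and 288 short-term (1.60 and 1.35), Areg had 113 CPM in Malign_0 and 281 in Malign_1 long-term, and 70.0 and 181 short-term (1.30 and 1.36), and Ereg had 131 CPM in Malign_0 and 456 in Malign_1 long-term, and 119 and 287 short-term (1.80 and 1.26). They were the 3 genes at least 2-fold higher of the 10 long-term and 12 short-term genes of the growth factor list past 20 CPM, and the list's medians were -0.20 long-term and 0.13 short-term. Axl, a receptor tyrosine kinase of that list, was lower at -0.54 and -0.46. Bmp2, a bone morphogenetic protein, had 85.2 CPM in Malign_0 and 258 in Malign_1 long-term, and 128 and 311 short-term (1.59 and 1.27). Next to it in the list of TGF-beta and BMP genes were the inhibitory SMAD gene Smad7 (0.77 and 0.69), the SMAD repressor gene Skil (0.68 and 1.01) and the activin subunit gene Inhba (0.58 and 0.56). Of that list 1 of 11 genes long-term and 3 of 12 short-term were at least 2-fold higher, the medians were 0.44 long-term and 0.62 short-term, and Ltbp1, which encodes a binding protein of latent TGF-beta and was named after its values were seen, was lower at -0.65 and -0.47. Hbegf, Ereg and Bmp2 were higher in Malign_1 than in every other cluster of at least 50 cells in both experiments, and Malign_0 was second for Ereg and Bmp2 with 131 and 85.2 CPM long-term. An Ereg UMI was held by 56.2% (53.9 to 58.5) of thinned Malign_1 cells long-term and 55.0% (53.0 to 57.0) short-term, against 34.8% and 37.8% of Malign_0 cells. Among the T cells the shares were 0.429% and 3.33%. Plpp3, which encodes an enzyme that degrades lysophosphatidic acid outside the cell, had 145 CPM in Malign_0 and 287 in Malign_1 long-term, and 108 and 190.0 short-term (0.98 and 0.81), but its relatives Plpp1 (-0.63 and -0.22) and Plpp2 (-0.27 and -0.12) were lower in 12 of 12 pools. Lpar1, the mouse gene of the receptor LPA1, had 21.4 CPM in Malign_0 and 15.4 in Malign_1 long-term, and 41.6 and 41.2 short-term. The list of lysophosphatidic acid signalling had 0 of 4 long-term and 0 of 5 short-term genes past 2-fold and medians of -0.36 long-term and -0.12 short-term.

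Parts of the stress and hypoxia lists were higher too. Of the unfolded protein and integrated stress response list, 4 of 22 genes long-term and 5 of 21 short-term were at least 2-fold higher, with list medians of 0.18 long-term and 0.19 short-term. Atf4, the central transcription factor of the integrated stress response, had 158 CPM in Malign_0 and 362 in Malign_1 long-term, and 171 and 486 short-term (1.19 and 1.501). Its target Ddit3 (CHOP) had 67.3 CPM in Malign_0 and 164 in Malign_1 long-term, and 60.5 and 198 short-term (1.27 and 1.69), and Ddit4, an inhibitor of mTOR signalling, had log2 ratios of 1.03 and 1.43. In the heat shock list Dnajb1, an HSP40 co-chaperone, had 38.7 CPM in Malign_0 and 256 in Malign_1 long-term, and 40.4 and 148 short-term (2.69 and 1.84), and the small heat shock gene Hspb1 had 1413 CPM in Malign_0 and 3161 in Malign_1 long-term, and 728 and 1224 short-term (1.16 and 0.75). The rest of that list differed less, with Hspa1b at 0.62 and 0.45.

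In the glycolysis and hypoxia list 5 of 21 genes long-term and 6 of 20 short-term were at least 2-fold higher and 0 lower, with medians of 0.53 long-term and 0.22 short-term. The hexokinase gene Hk2 had 31.4 CPM in Malign_0 and 134 in Malign_1 long-term, and 13.5 and 54.4 short-term (2.06 and 1.93). Adm, which encodes the hypoxia-induced peptide adrenomedullin, had 15.4 CPM in Malign_0 and 67.1 in Malign_1 long-term, and 4.88 and 25.9 short-term (2.05 and 2.20). Ero1l, an oxidase of disulfide formation in the endoplasmic reticulum, was at 1.35 and 1.30, and the glucose transporter gene Slc2a1 at 1.04 and 1.08. An Adm UMI was held by 12.8% and 7.53% of thinned Malign_1 cells, 5.27% and 2.39% of Malign_0 cells and 1.72% and 0% of the T cells. At these levels most thinned cells would hold none even if all expressed the gene alike. The shares therefore do not tell how many cells express it.

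Lower genes differed less, and fewer of them passed 2-fold, although more genes were lower than higher in all 12 pools. The median gene itself lay at -0.07 long-term and -0.09 short-term, and the part of this shift in that surplus was not tested. The pool ranges of the clusters did not overlap in either experiment for 262 lower genes (4.99%) and 201 higher genes (3.83%). Of 15 genes of the G2/M list past 20 CPM, 9 were at least 2-fold lower in Malign_1 long-term, but 0 of 21 were short-term, and the medians were -1.12 long-term and -0.37 short-term. The long-term median was -1.34 within pools 1 to 4 and -0.62 within pools 5 to 8, and of all genes compared 34 and 13 were at least 2-fold lower there. For S phase genes the medians were -0.58 long-term and -0.39 short-term. E2f8, a repressor of the E2F family that peaks in S phase, led the lower genes: its long-term pools had 9.36, 12.7 and 17.3 CPM in Malign_1 and 20.8, 25.8 and 30.4 in Malign_0. In short-term pools it had 40.9, 35.4, 44.2 and 38.8 CPM and 88.9, 80.7, 87.9 and 81.9 CPM. These are log2 ratios of -0.99 and -1.07, and it was the gene at least 2-fold lower short-term. Also lower were the mitotic genes Ckap2l (-1.17 and -0.63) and Cenpf (-1.23 and -0.54), and the replication and chromatin genes Mcm3 (-0.90 and -0.50) and Hells (-0.89 and -0.49). Top2a, a topoisomerase of dividing cells picked after its values were seen, had 63.3 CPM in Malign_0 and 27.4 in Malign_1 long-term, and 135 and 113 short-term. Replication-dependent histone genes, which are transcribed in S phase, did not share one direction: their medians were -0.36 long-term and 0.26 short-term, and the linker histone gene Hist1h1b had 39.6 CPM in Malign_0 and 16.6 in Malign_1 long-term, but 79.2 and 110.4 short-term (-1.20 and 0.47). In the 50% of cells with least S and G2/M RNA, the long-term log2 ratio of Hist1h1b was 0.67.

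Fewer Malign_1 than Malign_0 cells carried many cell cycle transcripts. With each cell thinned to 5000 UMIs and 10 or more of them from the G2/M list called cycling, the share was 3.40% (61 of 1794 cells, 95% interval 2.61 to 4.35, pools 1.83 to 6.16) of Malign_1 long-term and 8.22% (231 of 2809 cells, 95% interval 7.23 to 9.30, pools 5.86 to 10.9) of Malign_0. Short-term it was 11.5% (272 of 2363 cells, 95% interval 10.3 to 12.9, pools 9.72 to 12.8) and 16.4% (413 of 2515 cells, 95% interval 14.99 to 17.9, pools 15.7 to 17.7). The pools did not overlap short-term and overlapped slightly long-term. From 5 to 15 list UMIs, near the threshold, there were 27 Malign_1 and 116 Malign_0 cells long-term and 82 and 142 short-term. Among the 50% of cells of each cluster and pool with the smallest share of S and G2/M transcripts, the G2/M median was 0.19 long-term and 0.10 short-term, so the lower level was not seen there, although these cells were picked on those same transcripts.

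Most collagen genes and single keratin genes were also lower. None of 7 long-term and 10 short-term collagen genes past 20 CPM was 2-fold lower, but 5 of the 7 were at least 1.5-fold lower long-term, and the medians were -0.66 long-term and -0.33 short-term. Col18a1, a basement membrane collagen, had 309 CPM in Malign_0 and 172 in Malign_1 long-term, and 887 and 673 short-term (-0.84 and -0.40), and Col4a2, of the collagen IV network, was at -0.71 and -0.54. Col6a1, a collagen VI chain named after its values were seen, went the other way short-term, with 149 CPM in Malign_0 and 212 in Malign_1 (0.51, higher in 4 of 4 pools), and was at -0.08 long-term. Besides Krt8 and Krt18, the keratin gene Krt27 had 107 CPM in Malign_0 and 33.8 in Malign_1 long-term, and 150.5 and 88.7 short-term (-1.63 and -0.76). Its long-term log2 ratio was -0.73 in the 50% of cells with least S and G2/M RNA. Krt27 is in no list, and the list of keratins and epithelial junctions had medians of -0.02 long-term and -0.18 short-term, with 1 of 5 genes at least 1.5-fold lower long-term and 0 of 6 short-term, and Jup, a junction gene, higher in 10 of 12 pools. In the mesenchymal list the cadherin gene Cdh2 (-0.45 and -0.37) and the calcium binding S100a4 (-0.49 and -0.44) were lower, and the list's medians of -0.08 long-term and 0.05 short-term lay near those of all genes. Matrix proteoglycans and glycoproteins as a list were not uniformly lower, with medians of -0.14 long-term and 0.01 short-term. Their summed levels, in which abundant genes weigh most, were 1.06 and 1.39 times those of Malign_0. Members went both ways: the syndecan gene Sdc4 had log2 ratios of 0.46 and 1.07 and the fibulin gene Fbln2 0.57 and 0.43. Vcan (-0.43 and -0.28) and Lamb1 (-0.48 and -0.35) were lower. Dkk2, a secreted Wnt modulator, had 62.6, 76.3 and 107 CPM in Malign_1 and 152, 169 and 193 CPM in Malign_0 long-term, and 258, 259, 229 and 266 CPM against 436, 398, 407 and 450.1 CPM short-term. It was lower in 12 of 12 pools, which was a condition for naming it as a leading gene. Its log2 ratios were -1.14 and -0.74, though that of long-term pool 6 was -0.59.

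Other leading lower genes had log2 ratios from -1.43 to -0.63. They were M1ap, Cldn9 (a tight junction claudin, -0.86 and -0.76), Fyb, Msx3, Sema7a (a membrane semaphorin, -0.86 and -0.71), Klk10, Klra4, Nefl, Cdc42ep2, Phactr1, Zfp329 and Abcb9. In the 50% of cells with least S and G2/M RNA, the long-term log2 ratio of Klk10 went from -0.71 to -0.07. Interferon-stimulated genes were slightly lower: 0 of 16 were 2-fold lower in either experiment, the medians were -0.38 long-term and -0.24 short-term, and Ifit1 had 126.8 CPM in Malign_0 and 73.4 in Malign_1 long-term, and 62.3 and 43.7 short-term (-0.78 and -0.50). The nuclear long RNA Neat1 was higher, at 0.56 and 1.44. Genes of antigen presentation by MHC class I had medians of -0.19 long-term and -0.03 short-term.

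Several lists hardly separated the clusters. Ribosomal protein genes had medians of 0.04 long-term and -0.03 short-term, and MYC target and nucleolar genes 0.05 long-term and -0.06 short-term. Nuclear genes of oxidative phosphorylation were at -0.16 long-term and -0.16 short-term, with 0 of 22 past 1.5-fold in either direction. The homologous recombination and PARP list, the pathway and targets relevant to olaparib, could hardly be compared: 5 of its 31 genes passed 20 CPM long-term and 6 short-term, among them the drug efflux pumps Abcb1a (0.34 and 0.30) and Abcb1b (0.09 and 0.07), and 0 of them reached 1.5-fold. The other genes of that list were too low to be compared, so these values do not describe the pathway as a whole.

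Across all clusters, the level of the immediate early list placed the T127 malignant clusters at opposite ends. Of 21 long-term clusters Malign_1 was highest with 33763 CPM and Malign_0 lowest with 4362, and i_CAF came next below Malign_1 with 16476. Of 14 short-term T127 clusters Malign_1 was again highest with 26313 and Malign_0 lowest with 4357, i_CAF having 17632. Malign_0 lay closer to its neighbours, with CD8_Tn-CCR7 T cells at 4620 CPM long-term and plasmacytoid dendritic cells at 5275 short-term. Single long-term pools of some small clusters were below its lowest pool of 3720 CPM, such as 1651 in my_CAF. Single genes did not all rank alike. Fos, Junb, Egr1 and Arc were highest in Malign_1 in both experiments, but for Atf3 it ranked 6 and 7, below macrophage clusters, and for Nr4a1 14 and 12, while Malign_0 was last for Nr4a1 in both. Within pools 1 to 4 the list stood at 36465 CPM in Malign_1 and 5005 in Malign_0, and within pools 5 to 8 at 27859 and 3855.

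**Figure D4:**
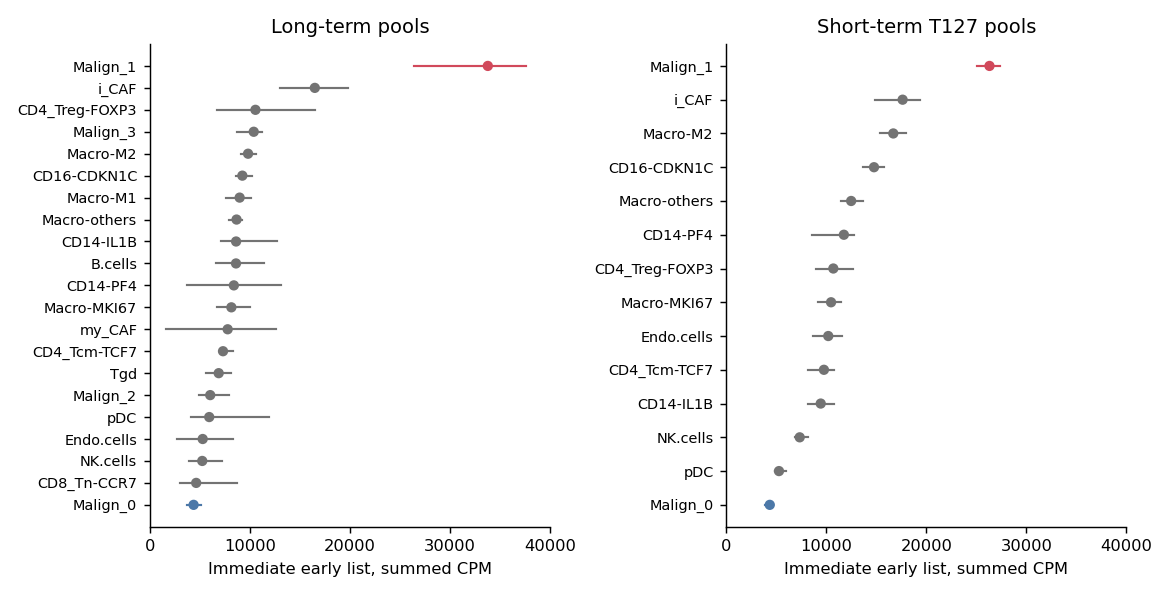
Summed level of the immediate early list in CPM for each cluster of at least 50 cells, long-term and short-term T127; points are the clusters and lines span the lowest to the highest pool. Malign_1 is the highest cluster in each experiment (33763 and 26313 CPM) and Malign_0 the lowest.

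Single cells of the clusters overlapped. Each cell, thinned to 5000 UMIs, was scored by the mean of log2(UMIs + 1) over the 15 most increased genes minus that over the 15 most decreased genes, with the genes taken from the pools of one experiment and the cells scored in the other. The cluster names rest on these cells' own expression, so the score describes and does not test. Short-term, the median score was 1.68 in Malign_1 (quartiles 1.12 and 2.14) and 0.03 in Malign_0. 400 of 2363 Malign_1 cells (16.9%) lay below the midpoint of the medians and 133 of 2515 Malign_0 cells (5.29%) above it. Long-term, the medians were 1.61 and 0.13, with 333 of 1794 Malign_1 cells (18.6%) below and 99 of 2809 Malign_0 cells (3.52%) above. Within 0.125 times the gap between the medians of that midpoint were 10.6% of the T127 malignant cells short-term and 6.63% long-term. More Malign_1 cells than Malign_0 cells thus sat on the other cluster's side. Per pool, 10.9% to 16.04% of Malign_1 cells were below the midpoint in long-term pools 1 to 4, 24.8% to 32.6% in pools 5 to 8 and 14.2% to 19.4% short-term.

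**Figure D5:**
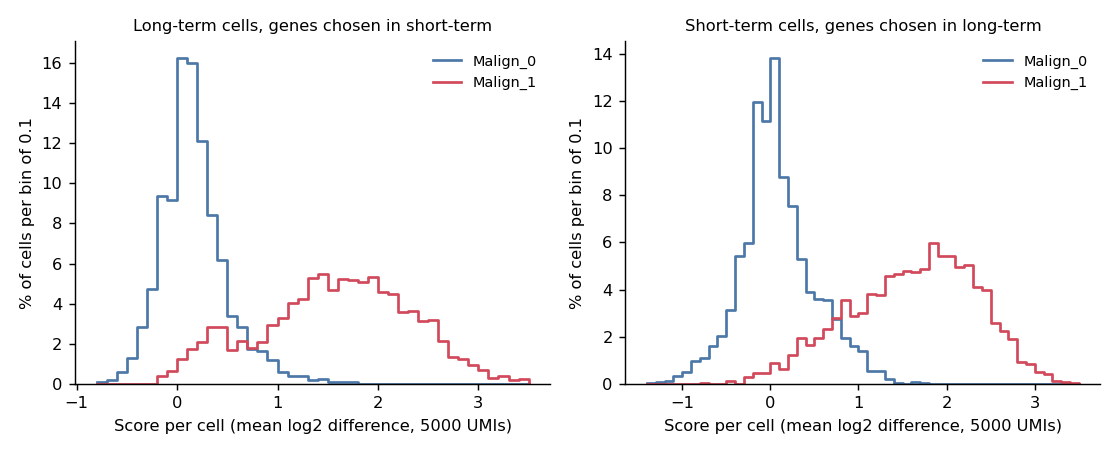
Distribution of the per-cell score (leading higher genes minus leading lower genes, thinned to 5000 UMIs) for Malign_0 and Malign_1 cells, scored in each experiment with genes chosen in the other. The Malign_1 medians are 1.68 short-term and 1.61 long-term, and its lower tail, with a small second peak long-term, reaches into the range of Malign_0.

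Malign_1 cells varied widely in the same genes. The immediate early share of a cell's UMIs had a median of 3.17% (quartiles 1.78% and 4.88%) long-term and 2.62% (1.61% and 3.73%) short-term, against 0.329% and 0.308% in Malign_0. By the variance over the mean of thinned counts, 15 genes were in the top 30 of Malign_1 in both experiments. They included Fth1 (ferritin heavy chain), Spp1 (osteopontin), Slpi (a secreted protease inhibitor), Malat1, Dcn and Ptn (the growth factor pleiotrophin), and also Junb, Fos, Jun, Ier2, Cxcl1, Cxcl2 and Hspb1, named for this rank. For Fth1, Spp1 and Malat1 the ratio was alike in Malign_0 (112 in Malign_1 and 97.7 in Malign_0 for Spp1 long-term). Junb had 39.7 against 8.56 long-term and 17.0 against 5.11 short-term, but this ratio rises with the mean, and the mean Junb count of a thinned cell was 37.7 against 4.09 and 23.8 against 3.43, so the ratios do not show that Junb varied more in Malign_1 relative to its level.

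To see what else varied with the immediate early share, the Malign_1 cells of each pool were divided at its median into an upper group (895 long-term, 1181 short-term) and a lower group (899 and 1182). This is a division of a range and not of cell types: 76 upper and 106 lower cells long-term, and 153 and 155 short-term, lay within 10% of the dividing value. The upper group was shallower, with median UMIs of 18890 against 22282 long-term and 28912 against 36606 short-term. Malign_1 was also named from the expression of these same cells. The parts of depth and of that naming in what follows were not tested. The G2/M list in the upper group was 0.505 times its level in the lower group long-term and 0.228 times short-term. The keratin list was at 0.515 and 0.667 times, with its member Krt8 at 0.519 and 0.562. Krt27, which is not in that list, was at 0.104 and 0.101. The sum of the matrix proteoglycan and glycoprotein list was at 1.57 and 2.04 times, with Dcn at 2.21 and 2.12 and Sdc4 at 1.71 and 1.40. Other matrix genes did not share this: Vcan was at 1.01 and 0.986, Lamb1 at 0.836 and 1.03 and Fbln2 at 0.69 and 1.23. Malign_1 cells with the most immediate early RNA thus held more Dcn and less keratin and G2/M RNA than the others of their pool. The sums of the 3 lists went one way in 12 of 12 pools. Many other lists did so too, such as MYC targets and nucleolus (0.742 and 0.689) and ribosomal proteins (0.846 and 0.883), so this is not particular to the 3.

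Interferon-stimulated genes, which were lower in Malign_1 than in Malign_0, were higher in the upper group, at 1.67 and 1.33 times, with Ifit1 at 2.03 and 2.08. Glycolysis and hypoxia went the other way from the comparison of clusters: the list was at 0.741 and 0.893 times in the upper group, with Adm at 0.205 and 0.388, Ero1l at 0.459 and 0.769 and Slc2a1 at 0.543 and 0.867. Hk2 of the same list did not share this and was at 1.38 and 1.46. Of the EGF receptor ligands, Areg was at 0.317 and 0.835, Ereg at 1.61 and 1.24 and Hbegf at 1.08 and 1.08. Cxcl1, Ccl2, Ccl7 and Cdkn1a were higher in the upper group in both experiments, with Ccl2 at 3.82 and 1.74, whereas Cxcl2 was at 1.41 long-term and 0.852 short-term. Within Malign_1, Adm and Areg were thus lower where the immediate early share was high. The part of the cluster naming in this was not tested.

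Between experiments, Malign_1 itself differed in some leading genes, though treatment length, transplant setting and run cannot be told apart. Fos ranged from 4427 to 7721 CPM across long-term pools and from 2910.3 to 3335 across short-term pools, without overlap, and Nr4a1 from 81.3 to 157 and 216 to 240.4. Cxcl1 overlapped, with 789.6 to 1274 and 935 to 1152 CPM. In 82 genes all 8 long-term pools had one direction of Malign_1 against Malign_0 and all 4 short-term pools the other, but the smaller of the log2 ratios was at most 0.25 in size. The ganglioside synthase gene St3gal5 was the largest of these, at -0.29 and 0.25.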

How the data were processed

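The authors dissociated the tumors, tagged and pooled their cells, removed dead cells and made 10x 3' libraries. Per the labels and the study's methods they ran Cell Ranger 6.0.0 on GRCm38 with introns included, filtered cells on gene number and mitochondrial share, removed doublets with Scrublet and named malignant cells from copy number. The deposited counts are raw UMIs of 32285 genes per cell, and cell names are the deposited ones. Pools held 34755906 to 55600377 UMIs.

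Of barcodes shared between long-term pools the deepest copy was kept. UMIs were summed by cluster and experiment and written as CPM, ratios had 1 CPM added, genes needed 20 CPM in either cluster, and 2-fold was the threshold. Intervals are 95% Clopper-Pearson or exact conditional binomial and cover counting error only. No test between groups was run, since cells are not replicates. Named genes are the 15 highest and 15 lowest by the smaller log2 ratio among genes with 1 direction in all 12 pools, the given markers, and up to 4 members a list by the same measure, of which 1 gene is not reported here. Members and lists were chosen with earlier results of these data known. Doublets were not called again. Alternatives concern copies, pools, depth, doublets, macrophage RNA, cell cycle, CPM total, filter, pseudocount and fold. Thinning used seed 1. The procedure was tested on simulated data. Scripts ran in Python 3.11.15 with scipy 1.17.1, numpy 2.4.6, matplotlib 3.10.9 and pandas 2.3.3. A human genome was at hand, so no coordinates or sequences are given.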

Additional observations from a re-analysis of the deposited data

Results flagged for a closer look

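Among the pools of each experiment, the log2 ratios of the named genes were searched for a single pool far from the others by Dixon's criterion; 74 sets of pools were checked, 4 had such a pool, and chance flags about 1 in 20. Dkk2 stood at -0.59 in long-term pool 6, against -1.35 to -1.0005 in the other long-term pools. Cdc42ep2 stood at -0.33 in long-term pool 7, against -0.98 to -0.74. Atf3 stood at 5.14 in short-term pool 1, against 4.68 to 4.75. Cldn9 stood at -0.96 in the same short-term pool, against -0.71 to -0.66. In all 4 the direction was that of the other pools, but these genes were picked for one direction in every pool, so it could not differ.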

How the results depend on the processing

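No paired analysis was possible because no file ties cells to tumors, so that each experiment is 1 sample and its pools, which each hold both clusters, are captures of mixed tumors and not replicates. Within-pool ratios are given as a description. The 30 leading genes kept their direction in all 1020 values under the alternatives, but 11 values of 7 genes moved by over 1.5 times. These genes were picked for one direction in every pool, so settings that only leave out or keep pools could hardly change it. In the 50% of cells with least S and G2/M RNA, long-term log2 ratios went from -0.71 to -0.07 for Klk10, -1.63 to -0.73 for Krt27, -0.84 to -0.39 for Nefl and -0.76 to -1.21 for Fyb. With 10 CPM added, Arc went from 3.42 to 1.66 and from 3.45 to 1.84 (long-term and short-term), Tnfaip3 from 2.96 to 1.77 long-term and Fyb from -0.86 to -0.57 short-term. Long-term, Fyb was -0.41 in pools 1 to 4, Klk10 -0.35 in pools 5 to 8, and Abcb9 went from -0.70 to -0.45 thinned. Of 2245 values of at least 1.5-fold, 5 changed sign, all long-term in the 50% of cells with least S and G2/M RNA: the G2/M median (0.19), Mcm3 (0.000121), Cenpf (0.24), Cenpa (0.16) and Hist1h1b (0.67). There the short-term G2/M median was 0.10. Genes at least 2-fold lower long-term numbered 24, but 14 without the top 5% of cells by UMIs, 9 in those low-cycling cells, 8 with 10 CPM added, 67 with a 5 CPM filter, 75 without a filter, 116 at 1.5-fold and 13 in pools 5 to 8. Short-term this count was 1, but 2 without the top 5% of cells, 0 when centred on the median gene, 0 with 10 CPM added, 9 with a 5 CPM filter, 11 without a filter and 52 at 1.5-fold. Genes higher numbered 145 without a filter and 173 at 1.5-fold long-term, and 209 at 1.5-fold short-term. The immediate early median was 2.61 with 10 CPM added and 2.68 in pools 5 to 8 long-term, and short-term 2.74 without the top 5%, 2.74 thinned, 2.69 as a mean over cells, 2.69 centred and 2.50 with 10 CPM added. The Malign_1 share was 26.3% in pools 5 to 8 and, short-term, 47.4% without the 10% of cells with most macrophage marker UMIs. The separate runs of pools 1 to 4 and 5 to 8 were chosen after seeing the data.

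Leaving out each pool in turn gave shares of 36.8% to 40.7% long-term and 48.1% to 48.8% short-term, depth ratios of 1.02 to 1.05 and 0.874 to 0.894, 91 to 96 and 117 to 124 higher genes, 11 to 30 and 1 to 2 lower genes, immediate early medians of 2.85 to 2.95 and 2.58 to 2.64, and G2/M medians of -1.29 to -0.75 and -0.45 to -0.30. Without long-term pool 4 there were 11 lower genes and the G2/M median was -0.75; without short-term pool 1 there were 2 lower genes. Genes under 20 CPM, and the effects of olaparib, day and transplant setting on Malign_1, are beyond what these summed counts can show.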
